A study of Mus musculus with 24 samples.

Results

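The 7 genes described here encode components of the classical complement pathway and proteins that restrain or read it: C1qa, C1qb and C1qc, C4b and C3, the inhibitor gene Serping1 and the receptor gene C3ar1. They were chosen by symbol, with earlier results of these data known, and all 7 had a row among the 33364 genes counted. RNA was sequenced from 2 areas of the frontal cortex of C57BL/6 mice, the mPFC (medial prefrontal cortex) and the ACC (anterior cingulate cortex). The mice were labelled as 3 months old and had undergone, 2 weeks earlier, sham surgery or SNI, the spared nerve injury of sciatic nerve branches that models neuropathic pain. Females and males, sham and SNI, and both regions made 8 groups of 3 libraries, 24 libraries in all. Each library came from tissue punches pooled over several mice, so the spread reported here is between pools, not between single animals. All mice had the same strain and surgery-to-sampling interval, and sham mice were the controls of their own sex and region. The labels and methods did not state whether the mPFC and ACC pools with the same number came from the same animals.

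The classical pathway starts when C1q, a protein built of A, B and C chains, binds a target and activates the proteases C1r and C1s. These cleave C4 and C2, and the resulting convertase cleaves C3, whose fragments tag membranes and, as C3a, act on the receptor C3aR. In the brain the C1q chains are known as products of microglia, C4 is made by several glial cell types, and tagging of synapses by complement is known to mark them for removal by microglia.

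C1qa, C1qb and C1qc lie side by side on the reverse strand of chromosome 4 (GRCm38, annotated by GENCODE), at chr4:136895917-136898803, chr4:136880129-136886187 and chr4:136889804-136893065. C3 is at chr17:57203970-57228136 and C4b at chr17:34728380-34743882, Serping1 at chr2:84765387-84775444 and C3ar1 at chr6:122847138-122856161. All are protein-coding genes on the reverse strand. The C3 gene also holds the microRNA gene Mir6978. C4b has a near-identical neighbour, C4a, and reads that map to both may have been lost or split in the counting, so the C4b values carry that uncertainty. Of the C1q genes, C1qb and C1qc had a promoter stretch in the reference used, and C1qa did not. The 250 bases before the RefSeq start of C1qb and of C1qc are shown, 5′ to 3′ on the gene's strand (GRCm38.p6, chr4:136886201-136886450 and chr4:136892915-136893164). Capitals mark GAGGAA, the core letters of a site of the myeloid factor PU.1, or the longer GAGGAAGT, found on either strand.
C1qb: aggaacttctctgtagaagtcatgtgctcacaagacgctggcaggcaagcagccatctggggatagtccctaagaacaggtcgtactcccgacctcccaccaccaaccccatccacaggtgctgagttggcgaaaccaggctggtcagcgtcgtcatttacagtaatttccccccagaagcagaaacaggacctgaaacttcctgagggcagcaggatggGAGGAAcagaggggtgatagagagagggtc
C1qc: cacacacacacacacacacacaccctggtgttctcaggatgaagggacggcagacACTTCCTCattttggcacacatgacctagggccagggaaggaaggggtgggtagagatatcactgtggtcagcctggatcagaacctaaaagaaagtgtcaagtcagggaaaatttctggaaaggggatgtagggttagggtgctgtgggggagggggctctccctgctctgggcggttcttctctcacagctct
The C1qb stretch held GAGGAA once and not GAGGAAGT, and the C1qc stretch held GAGGAAGT once, on the opposite strand, where the shorter motif is part of it. Of 32851 promoter stretches of this length, 2.44% held GAGGAAGT and 23.3% held GAGGAA on either strand. The letters of a TATA box, TATAAA, were in neither stretch and in 12.4% of all. A match describes letters and was not tested as a binding site.

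The gene counts of a library summed to 23853845 to 32864391. Values below are CPM, counts scaled to library size with TMM factors, or RPKM, which divides CPM by the gene's exon length in kilobases. Xist and Ddx3y parted the labelled sexes in all 24 libraries. In 3 male ACC libraries, the sham libraries 1 and 2 and SNI library 1, 12 hepatocyte markers summed to 115 to 1490 counts, against 2 to 15 in the other 21. Female sham ACC library 1 and male SNI mPFC library 2 stood apart by 21811 and 1975 counts of the choroid plexus gene Ttr, where the other libraries had 5 to 152. Among the microglial markers, P2ry12 had at least 560 counts and Tmem119 at least 444 in every library.

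The levels of the 7 genes spanned a wide range, in the same order in nearly all libraries. By median RPKM over 24 libraries, C1qa stood at 28.6 and C1qb at 27.9, followed by C1qc at 12.5, C4b at 4.66, Serping1 at 2.04, C3ar1 at 0.577 and C3 at 0.0751. C1qa was above C1qb in 12 of 24 libraries, so these neighbours did not differ beyond their spread. C1qb was above C1qc, C1qc above C4b, C4b above Serping1 and Serping1 above C3ar1 in 24 of 24. C3ar1 was above C3 in 23 of 24, and the exception was male SNI ACC library 1. C1qa, C1qb, C1qc and C4b had 432 to 1108 counts in every library, Serping1 73 to 222 and C3ar1 44 to 94. C3 had 2 to 138 counts with a median of 10, so its values carried far more counting error than the others. The median coefficient of variation within a group was 7.45% for C1qa, 7.31% for C1qb, 9.34% for C1qc, 10.2% for C4b, 17.1% for Serping1, 11.4% for C3ar1 and 57.2% for C3. Counting error alone gives a median of 3.64% for C1qa, 8.75% for Serping1, 12.4% for C3ar1 and 27.0% for C3. For C3ar1 this is above the coefficient observed.

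**Figure D1:**
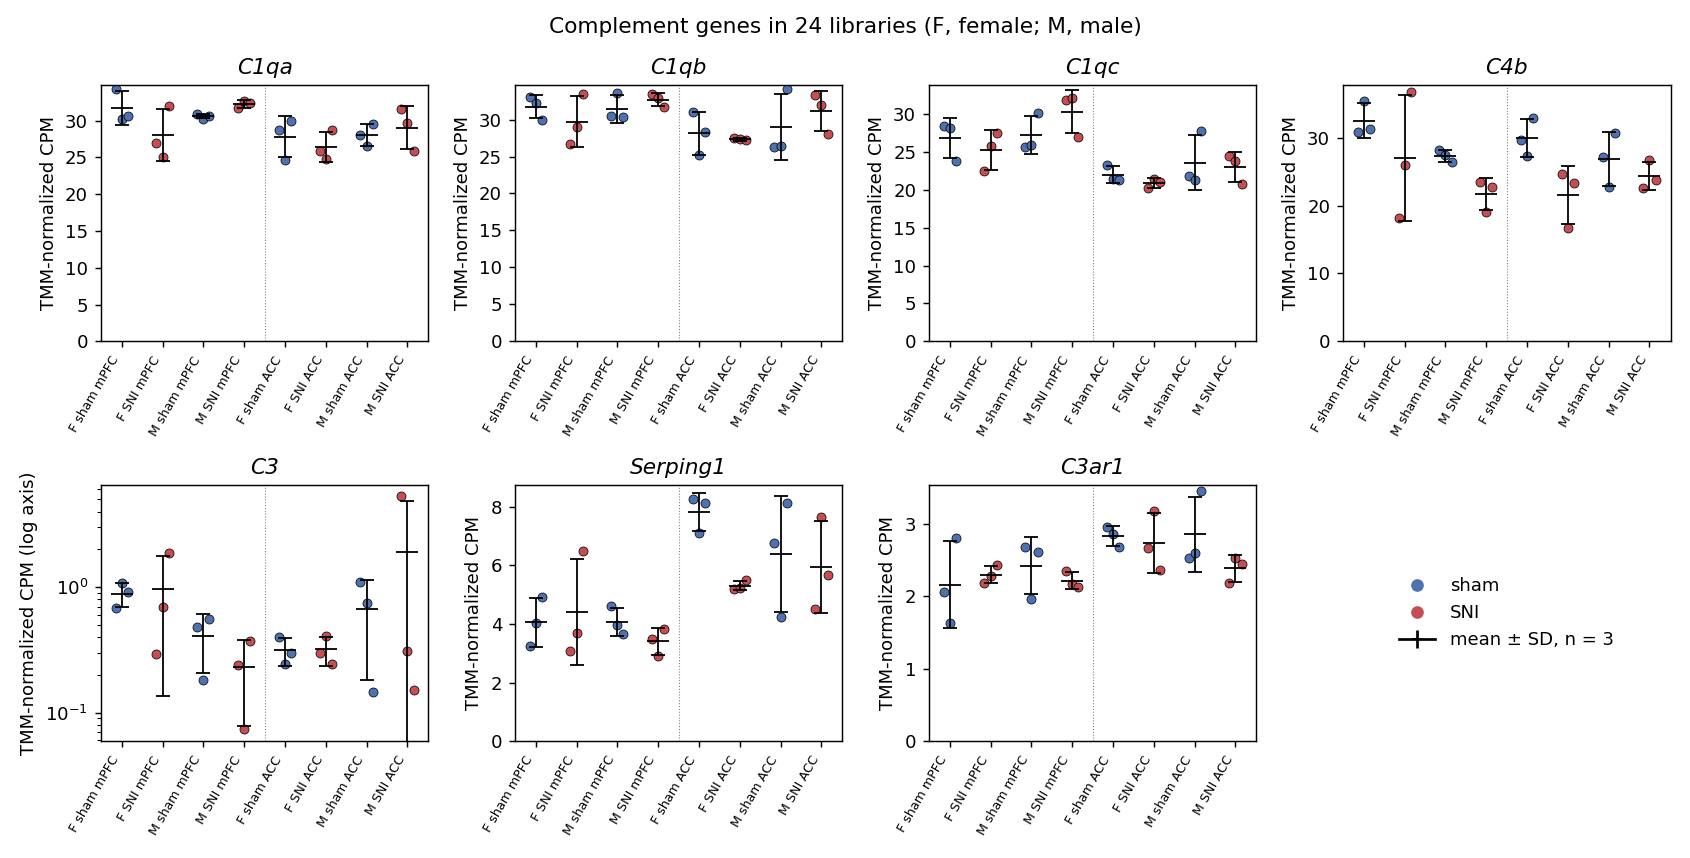
TMM-normalized CPM of the 7 complement genes (y axis) in each of the 8 groups (x axis, F female and M male). Each point is 1 library, bars are mean ± SD of 3, and the dotted line parts mPFC from ACC. C3 has a log axis, with its highest point, 5.29 CPM, in the male SNI ACC, and its lower SD bar there passes below the axis. Serping1 sits between 2.90 and 6.48 CPM in the mPFC and between 4.24 and 8.26 in the ACC.

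The C1q chains, which form the recognition molecule, had higher means in the mPFC than in the ACC in all 4 comparisons of the regions, and C1qc had the largest difference of the 3 in each. It had 28.5, 28.2 and 23.8 CPM in the female sham mPFC and 23.3, 21.4 and 21.3 in the female sham ACC. In the male SNI mPFC it had 31.9, 32.1 and 27.0, and in the male SNI ACC 24.5, 23.8 and 20.8. The mPFC libraries were above the ACC libraries without overlap in both of these groups and in the SNI females, where the means were 25.2 ± 2.58 and 20.9 ± 0.629 CPM (SD, n = 3). In sham males 25.6, 25.9 and 30.1 CPM in the mPFC overlapped with 21.8, 21.3 and 27.7 in the ACC. The log2 fold change of C1qc, mPFC over ACC, was 0.30 ± 0.08 (SE) in sham females, 0.21 ± 0.11 in sham males, 0.28 ± 0.08 in SNI females and 0.39 ± 0.08 in SNI males. Without sham male ACC libraries 1 and 2, which held hepatocyte transcripts, the sham male value of C1qc turned to -0.05, with 1 ACC library left. That library, library 3, had the largest excess of GC-rich over GC-poor genes of all 24, each measured against its own group's mean. Such a value, centred by group, does not compare 1 group with another. The parts of hepatocyte transcripts and of base composition in this change cannot be told apart.

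C1qa and C1qb, the A and B chains, had smaller differences in each of these comparisons. Those of C1qa ran from 1.07-fold in SNI females to 1.15-fold in sham females, and its groups did not overlap in 3 of 4. Those of C1qb ran from 1.05-fold to 1.14-fold, and its groups overlapped in 4 of 4. The C1qa value in SNI females was -0.02 on the log2 scale without mPFC library 3, and the C1qb value in SNI males -0.01 without ACC library 3. In sham males the C1qb value was -0.14 without the libraries with hepatocyte transcripts. That leaves only ACC library 3, whose GC-rich genes were highest against its group's mean. The count ratio of C1qb to C1qc within a library was 1.15 ± 0.09 in the 12 mPFC libraries and 1.29 ± 0.06 in the 12 ACC libraries (SD), with ranges from 1.01 to 1.30 and from 1.18 to 1.36 that overlapped. For C1qa to C1qb it was 0.976 ± 0.05 in mPFC and 0.967 ± 0.07 in ACC libraries.

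Of the 20 microglial markers 16, 20, 15 and 18 had a higher mean in the mPFC in sham females, sham males, SNI females and SNI males. Of them 6, 0, 3 and 1 passed as higher and 1, 0, 0 and 1 as lower. Of all genes 28.5%, 14.2%, 27.6% and 21% passed, so nothing is read from the marker counts. The markers had median log2 fold changes of 0.09, 0.12, 0.08 and 0.08. Their summed level was 464 to 517 CPM in mPFC libraries and 446 to 501 CPM in ACC libraries. P2ry12 was not among the genes that passed in any of the 4. In bulk tissue, more cells of a type and more RNA per cell cannot be told apart.

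After SNI the C1q chains had small differences. Their log2 fold changes, SNI over sham, lay between -0.18 and 0.16 in all 4 groups of sex and region, with SEs of 0.05 to 0.11. In the male ACC, without the libraries with hepatocyte transcripts and with 1 sham library left, they were -0.10, -0.19 and -0.32 for C1qa, C1qb and C1qc. The sham library left was library 3, in which GC-rich genes were highest against its group's mean. In the male mPFC, C1qa had 30.8, 30.3 and 30.6 CPM after sham surgery and 31.7, 32.7 and 32.4 after SNI, which did not overlap, and the difference was 1.06-fold. In the female mPFC, C1qa had 34.3, 30.2 and 30.6 CPM after sham surgery and 27.0, 25.1 and 31.9 after SNI, and these overlapped. The sex by SNI interaction in the mPFC, fitted over 12 libraries, was -0.26 ± 0.11 for C1qa, -0.25 ± 0.14 for C1qc and -0.15 ± 0.11 for C1qb. None passed an FDR of 0.1. These interactions rest on treatment values that had a part in the choice of the genes, so they are given as a description.

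Serping1 encodes C1 inhibitor, which blocks C1r and C1s, and had a lower mean in the mPFC in all 4 comparisons of the regions, opposite in direction to the C1q chains. In sham females it had 3.24, 4.03 and 4.91 CPM in the mPFC against 8.26, 7.09 and 8.12 CPM in the ACC, which did not overlap, a log2 fold change of -0.94 ± 0.15 (SE). In SNI males it had 3.50, 2.90 and 3.81 CPM in the mPFC against 4.52, 7.65 and 5.69 in the ACC, also without overlap, a log2 fold change of -0.81 ± 0.18. In sham males 4.60, 3.97 and 3.65 CPM in the mPFC stood against 6.77, 4.24 and 8.15 in the ACC. Library 2 of that ACC group lay within the mPFC range, and the log2 fold change was -0.64 ± 0.21. It was -1.02 without ACC libraries 1 and 2, which leaves 1 ACC library. In SNI females the mPFC had 3.07, 3.68 and 6.48 CPM and the ACC 5.20, 5.24 and 5.50. These overlapped because of mPFC library 3, and the log2 fold change was -0.25 ± 0.22, or -0.64 without that library. Over all groups, 12 of 12 ACC libraries were above the mPFC median of 3.75 CPM, and 1 of 12 mPFC libraries was above the ACC median of 6.23.

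Beside Serping1, the 14 meningeal fibroblast markers had lower means in the mPFC in 14 of 14 genes in sham females, sham males and SNI males. Their medians were -0.65, -0.77 and -0.59 on the log2 scale, and 11, 10 and 11 passed (28.5%, 14.2% and 21% of all genes). In SNI females, where the Serping1 difference was smallest, 8 of 14 were lower and the median was -0.04. There 2 markers passed as higher in the mPFC (27.6% of all genes in either direction). Their summed level ran from 133 to 172 CPM in the female sham mPFC and from 202 to 342 in the female sham ACC. The brain-border macrophage markers had lower means in the mPFC in 8 of 8 genes in sham females, with a median of -0.68, and in sham males, with a median of -0.67, and 3 passed in each. In SNI males it was 7 of 7 with a median of -0.33 and 2 passing. In SNI females it was 2 of 8, with a median of 0.16 and none passing. The shares of all genes that passed are those given above for the same groups. The part of these markers' cells in the Serping1 difference was not tested.

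After SNI, Serping1 was lower in the female ACC: 8.26, 7.09 and 8.12 CPM after sham surgery against 5.20, 5.24 and 5.50 after SNI. The groups did not overlap, and the log2 fold change was -0.56 ± 0.11 (SE). It was 0.13 ± 0.25 in the mPFC of females, -0.26 ± 0.15 in the mPFC of males and -0.11 ± 0.24 in the male ACC, each with overlapping groups. The sign turned without female SNI mPFC library 3 (-0.26) or female sham mPFC library 1 (-0.01), and without male sham ACC library 3 (0.11) or male SNI ACC library 1 (0.06). In the female ACC 14 of 14 meningeal fibroblast markers had lower means after SNI as well, with a median of -0.51 on the log2 scale. Of these markers 1 passed an FDR of 0.1 (0.024% of all genes). Their sum was 175 to 179 CPM after SNI and 202 to 342 after sham surgery. The difference of Serping1 was -0.52 without sham library 1, the library with Ttr. The region by SNI interaction of Serping1 in females, built from values that had a part in the choice of the genes, was 0.69 ± 0.29 (SE). It was 0.30 without female SNI mPFC library 3. The sex by SNI interaction of Serping1 in the ACC, which rests on such treatment values as well, was -0.47 ± 0.29.

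C4b, which is cleaved after C1 is activated and whose product joins the C3 convertase, had a lower mean after SNI in all 4 groups of sex and region. In the male mPFC it had 28.2, 27.4 and 26.4 CPM after sham surgery and 23.4, 19.0 and 22.7 after SNI. In the female ACC it had 29.6, 27.2 and 32.9 after sham surgery and 24.6, 16.7 and 23.3 after SNI. In these 2 groups every SNI library was below every sham library, and the log2 fold changes were -0.33 ± 0.08 and -0.48 ± 0.12 (SE). In the female mPFC the sham libraries had 30.8, 35.4 and 31.3 CPM and the SNI libraries 18.2, 26.0 and 36.7, so SNI library 3 was the highest of all 24 and library 1 the second lowest. The log2 fold change there was -0.27 ± 0.18, and -0.55 without SNI library 3. In the male ACC 27.1, 22.7 and 30.7 CPM overlapped with 22.6, 26.7 and 23.8, a log2 fold change of -0.14 ± 0.11. It was -0.29 without the libraries with hepatocyte transcripts, which leaves 1 sham library. With the sexes fitted together the SNI effect on C4b was -0.29 ± 0.11 (mPFC) and -0.31 ± 0.10 (ACC). The interactions of C4b with sex and region were between -0.35 and 0.21, and none passed an FDR of 0.1.

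The C4b neighbour C4a, with 29 to 73 counts, had log2 fold changes after SNI of 0.00 ± 0.27, 0.05 ± 0.20, -0.11 ± 0.23 and 0.08 ± 0.23 in the mPFC of females and of males and the ACC of females and of males. Gfap, the astrocyte filament gene, had lower means after SNI in the same 4 groups: -0.24 ± 0.14, -0.32 ± 0.06, -0.30 ± 0.10 and -0.19 ± 0.10 on the log2 scale, with FDR = 0.0729 in the male mPFC (edgeR quasi-likelihood test) and FDRs of 0.486 to 0.768 elsewhere. The 15 astrocyte markers as a list had medians between -0.05 and 0.01. The 15 oligodendrocyte markers had lower means after SNI in 15 of 15 genes in the female mPFC (median -0.53, none passing) and in the male mPFC (median -0.46, 8 passing). In the female ACC, where C4b was also lower, 14 of 15 had higher means, with a median of 0.18. The part of these cell types in the C4b differences was not tested. Between regions C4b did not have 1 direction: the log2 fold change, mPFC over ACC, was 0.13 ± 0.08 in sham females, 0.04 ± 0.10 in sham males, 0.34 ± 0.20 in SNI females and -0.17 ± 0.09 in SNI males.

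C3, the central component on which the pathways converge, was scarce, and its libraries varied the most. In the mPFC of sham females it had 18, 29 and 22 counts (0.685, 1.07 and 0.907 CPM), and in the ACC 10, 6 and 8 (0.399, 0.242 and 0.298 CPM). These did not overlap, a log2 fold change of 1.50 ± 0.35 (SE). In SNI females the mPFC had 7, 19 and 51 counts and the ACC 9, 12 and 6, which overlapped, a log2 fold change of 1.59 ± 0.57. Without mPFC library 3 it was 0.65. In sham males the mPFC had 13, 5 and 15 counts and the ACC 30, 19 and 4, and in SNI males the mPFC had 8, 2 and 10 and the ACC 138, 8 and 4. The direction in sham males, -0.69 ± 0.59, turned to 1.42 when ACC libraries 1 and 2 were left out, which leaves 1 ACC library whose spread is assumed to be that of the other libraries.

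The 3 male ACC libraries in which C3 was highest were those with hepatocyte transcripts, and C3 is a major product of the liver. Male SNI ACC library 1 had 657 counts of Alb, the serum albumin gene, with 11 of C9, 11 of C8a, 16 of C4bp and 23 of Hc, which are liver-made complement genes that had at most 7 counts in each of the 23 other libraries. Male sham ACC libraries 1 and 2 had 193 and 52 counts of Alb with 30 and 19 of C3. In the other 21 libraries C3 had 2 to 51 counts, with a median of 9, at 0 to 4 counts of Alb. The value of 51, in female SNI mPFC library 3, thus stood at 1 count of Alb and 11 counts over the hepatocyte list, where 6 of 12 markers were at 0. The male ACC difference after SNI, 1.52 ± 1.04 on the log2 scale, was -1.51 without SNI library 1. The part of hepatocyte RNA in the C3 values was not otherwise tested. In the female ACC, C3 was too low for the filter on low counts, and so it was in the regional comparison of SNI males and in both comparisons of SNI females with SNI males.

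**Figure D2:**
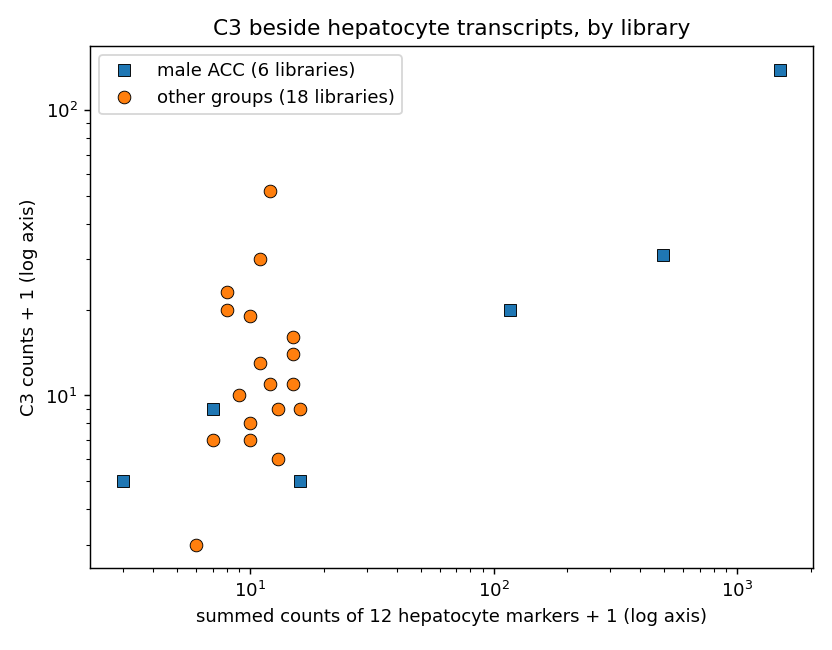
C3 counts (y axis, log scale, 1 added) against the summed counts of 12 hepatocyte markers (x axis, log scale, 1 added), with each point 1 of 24 libraries and the 6 male ACC libraries as squares. Of these, 3 lie to the right at 115 to 1490 hepatocyte counts with C3 at 19 to 138, and the other libraries lie at 2 to 15 hepatocyte counts with C3 between 2 and 51.

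C3ar1 encodes the receptor for C3a and in the brain is known from microglia and macrophages. It had a lower mean in the mPFC in all 4 comparisons, at 0.766 to 0.927 of the ACC level, with overlapping groups in each. Its lowest, median and highest values were 1.63, 2.24 and 2.80 CPM over the 12 mPFC libraries and 2.18, 2.63 and 3.45 over the 12 ACC libraries. It thus went the opposite way to the C1q chains, although both are known from microglia, and 11 of 12 ACC libraries were above the mPFC median. The count ratio of C1qa to C3ar1 was 13.7 ± 2.45 over the 12 mPFC libraries and 10.5 ± 1.82 over the 12 ACC libraries (SD). After SNI its log2 fold changes were 0.09 ± 0.23, -0.12 ± 0.18, -0.05 ± 0.17 and -0.26 ± 0.18 in the mPFC of females and of males and the ACC of females and of males, all within overlapping groups.

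Counts of calls were as follows, with the same test on all genes beside them. An edgeR quasi-likelihood test at an FDR under 0.1 called C1qc, C3 and Serping1 between the regions in sham females, where 28.5% of all genes tested were called. It called Serping1 in sham males (14.2% of all genes), C1qc and C3 in SNI females (27.6%) and C1qc and Serping1 in SNI males (21%, with 6 of the 7 tested). The groups of 4, 1, 1 and 3 of the 7 did not overlap, against 37.7%, 28%, 37.6% and 32.8% of all genes. These contrasts were part of the choice of the genes, so nothing is read from the counts. In sham females 6 were called without mPFC library 3, where 41.5% of all genes were called. It was the library whose GC-rich genes were lowest against its group's mean. In sham males 4 were called without ACC library 3, the library whose GC-rich genes were highest against its group's mean (27% of all genes). The number was 0 without ACC library 1 or any 1 of the 3 mPFC libraries (6.61% to 11.3%). In SNI females 4 were called without mPFC library 1 (31.6% of all genes), 1 without ACC library 2 or 3 (20.2% and 20.4%) and 0 without ACC library 1 (16.7%).

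After SNI, 0 of the 7 (0 of 6 in the female ACC) were called in any group by edgeR, against 0.00592% and 0.494% of all genes in the mPFC of females and males, and 0.024% and 0.00599% in the ACC of females and males. At an unadjusted p under 0.05 there were 0, 1, 2 and 0, given without the number over all genes, so nothing is read from them. DESeq2 called 1 in the male mPFC, C4b, and 1 in the female ACC, Serping1, beside 1.67% and 0.222% of all genes. The groups of 0, 2, 2 and 0 of the 7 did not overlap, against 15%, 16.9%, 11.8% and 8.2% of all genes. Leaving out male SNI mPFC library 1 gave 1 call, C4b (0.73% of all genes), and leaving out female sham ACC library 2 gave 1, Serping1 (0.8%). With the sexes together, 0 of 7 and 0% of all genes were called in either region by edgeR, with 1 and 2 of 7 at an unadjusted p under 0.05 and 0 of 7 by DESeq2. The number over all genes at the unadjusted p is not given, so nothing is read from those counts either.

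**Figure D3:**
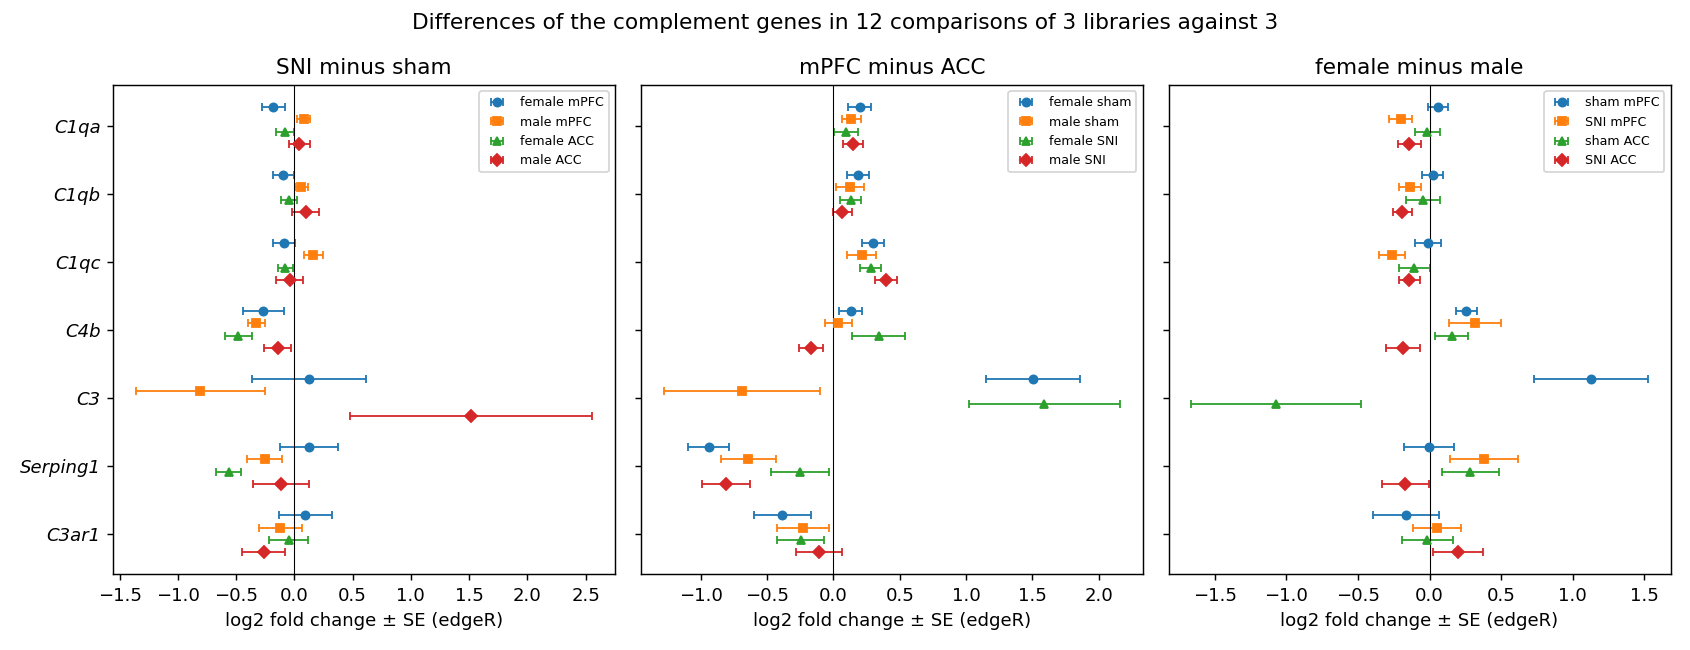
Log2 fold change ± SE (x axis) of each complement gene (y axis) after SNI, between regions and between sexes, each from 3 libraries against 3. Points are absent where C3 was too low to be tested. C4b lies left of 0 in all 4 SNI comparisons, and Serping1 left and the C1q chains right of 0 in all 4 comparisons of mPFC with ACC.

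Sex was not part of the choice of the genes and was tested. Of the 7, only C1qb passed in any comparison of females with males: in the SNI ACC it had 27.5, 27.3 and 27.2 CPM in females and 33.3, 32.0 and 28.1 in males. The groups did not overlap, and the log2 fold change, female over male, was -0.19 ± 0.07 (SE; edgeR quasi-likelihood test, FDR = 0.0815). In that comparison 23.5% of all genes were called and 34.5% did not overlap, and 1 of 6 members of the set that were tested passed. C1qb no longer passed without any 1 of female SNI ACC library 1, 2 or 3 or male SNI ACC library 1 or 2, where 11.6% to 13.8% of all genes were called. Without male SNI ACC library 3, C1qa, C1qb and C1qc were called, in a fit that called 33.6% of all genes. C3, which did not pass the filter on low counts with all libraries, was called without male SNI ACC library 2 or 3, with the 138 counts of the library with hepatocyte transcripts among the males, so nothing is read from its calls. In the sham mPFC 0 of 7 passed (0.177% of all genes), with 2 at an unadjusted p under 0.05 and 0 by DESeq2. There C3 was 1.13 ± 0.40 higher in females on the log2 scale (FDR = 0.361) and C4b 0.26 ± 0.07 (FDR = 0.300), each without overlap, as were 14.7% of all genes. C4b had 30.8, 35.4 and 31.3 CPM in females and 28.2, 27.4 and 26.4 in males, and it passed without female sham mPFC library 3 (FDR = 0.0373), where 15.5% of all genes were called, and no other of the 7 did.

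In the SNI mPFC 0 of 6 tested passed (0.076% of all genes) and 0 did not overlap (19.8% of all genes), with 2 at an unadjusted p under 0.05 and 1 by DESeq2, C1qc (3.23% of all genes). C1qc had 22.4, 25.8 and 27.5 CPM in females and 31.9, 32.1 and 27.0 in males, -0.26 ± 0.09 on the log2 scale (FDR = 0.229). Without female SNI mPFC library 1 the number called was 1 (0.578% of all genes), C3. C3 did not pass the filter on low counts with all libraries and entered that fit with 19 and 51 counts in the female libraries left, so nothing is read from its call. In the sham ACC 0 of 7 passed (0.0958% of all genes) and 0 did not overlap (13.5% of all genes), with 0 at an unadjusted p under 0.05 and 0 by DESeq2. Without the libraries with hepatocyte transcripts C1qc passed there, at a log2 fold change of -0.35, in a fit that called 16.4% of all genes. The 1 male library left was library 3, and its spread was assumed to be that of the females. Its GC-rich genes were the highest of all 24 against the mean of the library's own group.

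The interactions asked whether the SNI effect differed between the sexes or the regions. No member of the set passed in any of the 4 fits, nor did any gene: 0% of 17641 genes for sex in the mPFC, of 17289 for sex in the ACC, of 17451 for region in females and of 17504 for region in males (edgeR). At an unadjusted p under 0.05 there were 1, 0, 1 and 0 of the 7, beside 2791, 1024, 1932 and 559 of all genes. All 4 fits rest on values that had a part in the choice of the 7 genes, so nothing is read from their counts. DESeq2 called 0 of the 7 in each, beside 806, 2, 6 and 3 of all genes.

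The libraries' deviations from their group means show which of the 7 genes moved together within groups. These are Pearson correlations over 24 libraries, given as a description of 21 pairs, in which both values of a point share the library, its depth and its base composition. C1qb and C1qc had r = 0.75 (Spearman's rho = 0.71), C4b and Serping1 r = 0.75 (rho = 0.70) and C1qa and C1qb r = 0.66 (rho = 0.66). Without the 2 libraries farthest from the median of the first gene these were 0.64, 0.59 and 0.54. C3ar1 had r between -0.14 and 0.14 with C1qa, C1qb, C1qc, C3 and C4b, and 0.41 with Serping1. C1qb and C1qc also moved with base composition. The exons of C1qa, C1qb and C1qc are 59.5%, 57.4% and 57.5% GC, which is above 94.6%, 88.5% and 89.1% of 18063 genes. The difference in these deviations between the deciles of genes highest and lowest in GC correlated with C1qb at r = 0.76 and with C1qc at r = 0.76. It correlated with C1qa at 0.35 and with C4b, C3, Serping1 and C3ar1 between -0.15 and 0.22. That difference ran from -0.35 in female sham mPFC library 3 to 0.42 in male sham ACC library 3, on the log2 scale, and C1qb was highest of 24 in the latter, at 34.2 CPM. Its part in the C1q values was not tested.

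Against marker lists, Serping1 followed meningeal fibroblasts most closely (r = 0.81, rho = 0.80, and 0.81 without the 2 libraries farthest from the list's median). It also followed the other classical and lectin pathway genes (r = 0.78), mural cells (0.75), blood (0.72) and border macrophages (0.67). Without the 2 libraries farthest from each list's median these were 0.65, 0.72, 0.60 and 0.56. C1qa followed endothelial (0.75), microglial (0.64), blood (0.58) and astrocyte (0.57) markers, and C1qb endothelial and blood markers (0.67 each). Without the 2 farthest libraries these were 0.68, 0.55, 0.59 and 0.62 for C1qa, and 0.45 and 0.52 for C1qb. With microglial markers C1qb had r = 0.50, and 0.32 without the 2 farthest. C4b followed endothelial (0.70), blood (0.69), mural (0.66), microglial (0.55) and oligodendrocyte markers (0.53), and had r = -0.51 with neuronal markers. Without the 2 farthest libraries these were 0.53, 0.68, 0.63, 0.22 and 0.34, and -0.42 with neuronal markers. With astrocyte markers r was 0.47 for C4b, 0.54 for C1qb and 0.33 for Serping1. Without the 2 farthest libraries these 3 values were 0.68, 0.61 and 0.72. C3ar1 was closest to border macrophages (0.56). C3 followed the 3 hepatocyte markers that passed a filter on low counts (0.84, and 0.68 without the 2 libraries farthest from the list's median). With oligodendrocyte markers C3 had r = 0.54, and 0.57 without the 2 farthest. The choroid and ependymal list reached at most 0.46, with C1qb, and the interferon-response list at most 0.50, with C4b.

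**Figure D4:**
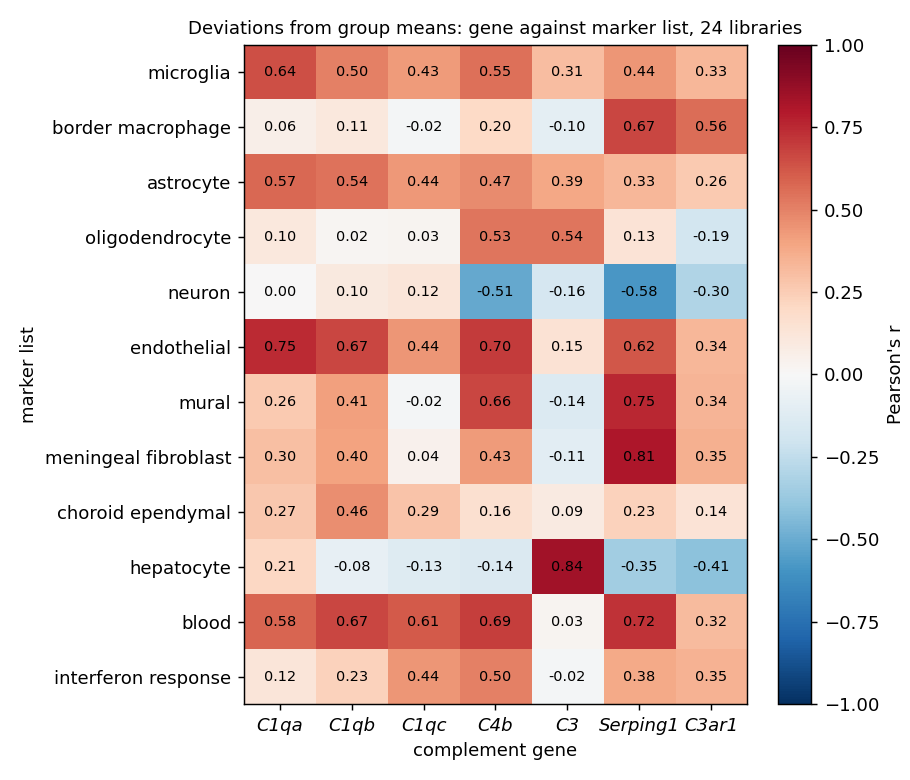
Pearson's r over 24 libraries between the deviation of each complement gene (x axis) and the mean deviation of each marker list (y axis) from the group means, with r printed in each cell. Serping1 is highest with meningeal fibroblasts (0.81), C3 with hepatocytes (0.84) and C1qa with endothelial cells (0.75).

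Among 14767 genes, those whose deviations were most like C4b were Apod (r = 0.86) and Gfap (0.86), which encode a lipocalin and the astrocyte filament protein, then Eci2, Nxph4 and Spsb2 (0.83, 0.82 and 0.81). Most like Serping1 were Colec12, a collectin gene, Col3a1, a fibrillar collagen gene, and C2, the classical pathway protease (0.86, 0.85 and 0.85), then Anxa1 and Bmp6 (0.83 each). Most like C1qb were Msi1, Ppp1r1a, Csf1r, Dapk3 and Pltp (0.90, 0.89, 0.88, 0.88 and 0.86). C1qc was most like Car11, Maz, Map1lc3a, Grin2d and Ptms (0.89 to 0.87), and C1qa most like AI467606, Gstt2, Nupr1, Tgfbr2 and Slc50a1 (0.81 to 0.75). C3 was most like Ncapd3 and Akr1c14 (0.89 and 0.85), then Mboat1, Nadsyn1 and 1700029J07Rik (0.77 to 0.75). C3ar1 was most like Ccdc58 (0.83), then Helq, Tbx18 and Cdk6 (0.79 to 0.75).

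The rest of the complement system was followed in a list of 61 further genes, of which 58 were in the tables and C1rb, Cfd and Cd55b were not analysed here. They were listed by function and were tested in every comparison. By mean RPKM the highest were Clu, which encodes the terminal pathway inhibitor clusterin, at 178, Calr (calreticulin, a partner of C1q) at 111, the sushi-domain gene Sez6l2 at 107, the clearance receptor gene Lrp1 at 51.7 and Sez6l at 51.1. In the 4 SNI comparisons 0 of 34 to 35 tested passed by edgeR, with 6, 3, 3 and 4 at an unadjusted p under 0.05 in the mPFC of females and of males and the ACC of females and of males. The number over all genes at the unadjusted p is not given, so nothing is read from those counts. DESeq2 called 0, 0, 1 and 0. When female sham mPFC library 3 was left out, 7 passed in the female mPFC, in a fit that called 15.9% of all genes. Without female sham ACC library 2, 3 passed in the female ACC (0.8% of all genes), and without male sham ACC library 3, 2 in the male ACC (13.5%). With the sexes together 0 of 38 and 0 of 37 passed, with 2 and 5 at an unadjusted p under 0.05 and 0 by DESeq2.

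Between the regions 8 rose and 8 fell of 33 tested in sham females, 5 and 3 of 35 in sham males, 6 and 2 of 36 in SNI females and 3 and 7 of 37 in SNI males, where rose means higher in the mPFC. Of all genes 28.5%, 14.2%, 27.6% and 21% passed in these comparisons. Among those higher in the mPFC were genes of the Csmd, Sez6 and Susd families, whose proteins carry sushi domains and are known in the brain. Sez6 was higher in the mPFC in all 4 groups, from 0.45 ± 0.08 in SNI males (FDR = 0.0028, edgeR quasi-likelihood test) to 0.80 ± 0.10 in sham females (FDR = 0.000458) on the log2 scale. Csmd3 and Csmd1 were higher in 4 of 4 as well, by 0.36 to 0.53 and by 0.17 to 0.33. Csmd2 passed in all but SNI males (0.33 to 0.52 where it passed), Sez6l in the same 3 groups, and Susd4 in the females, at 0.22 ± 0.06 after sham surgery and 0.11 ± 0.04 after SNI. Itgam, which encodes a chain of the complement receptor CR3, and Lrp1 passed in sham females, at 0.22 ± 0.07 and 0.26 ± 0.08.

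Among those lower in the mPFC were genes of the classical and lectin pathways. C2 had log2 fold changes of -1.20 ± 0.26 in sham females (FDR = 0.00956), -2.20 ± 0.34 in sham males (FDR = 0.00164) and -1.30 ± 0.31 in SNI males (FDR = 0.0125), and of -0.59 ± 0.27 in SNI females, where it did not pass. Its counts were low, 10 to 77 per library. Colec12 was lower in the same 3 groups, at -0.81, -0.41 and -0.35. Both genes passed in the 3 groups in which all meningeal fibroblast markers were lower, and not in SNI females, where C1ra and Megf10 passed. The part of meningeal cells in these differences was not tested. C1ra, a C1r gene, was lower in SNI females, at -0.47 ± 0.17, and in SNI males, at -0.55 ± 0.16. C1s1 was lower in sham females, at -0.74 ± 0.26, and Vtn, which encodes vitronectin, in sham females and SNI males, at -0.26 and -0.37. Megf10, a phagocytic receptor gene that binds C1q, was lower in all but sham males, at -0.43 to -0.29. Cd59a and Cr1l were lower in sham females, and Cfb in SNI males. In sham males 13 passed instead of 8 without ACC library 3, 4 without mPFC library 2 or 3 and 5 without ACC library 1. In sham females 9 passed instead of 16 without mPFC library 2, and 10 without ACC library 3. The shares over all genes moved with these, to 27%, 6.69%, 6.61% and 9.84% in the sham males and to 13.3% and 18.2% in the sham females. In SNI females 5 instead of 8 passed without mPFC library 2 or ACC library 1 or 2, and in SNI males 6 instead of 10 without mPFC library 2, where the shares were 20.9%, 16.7%, 20.2% and 12.4%.

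**Figure D5:**
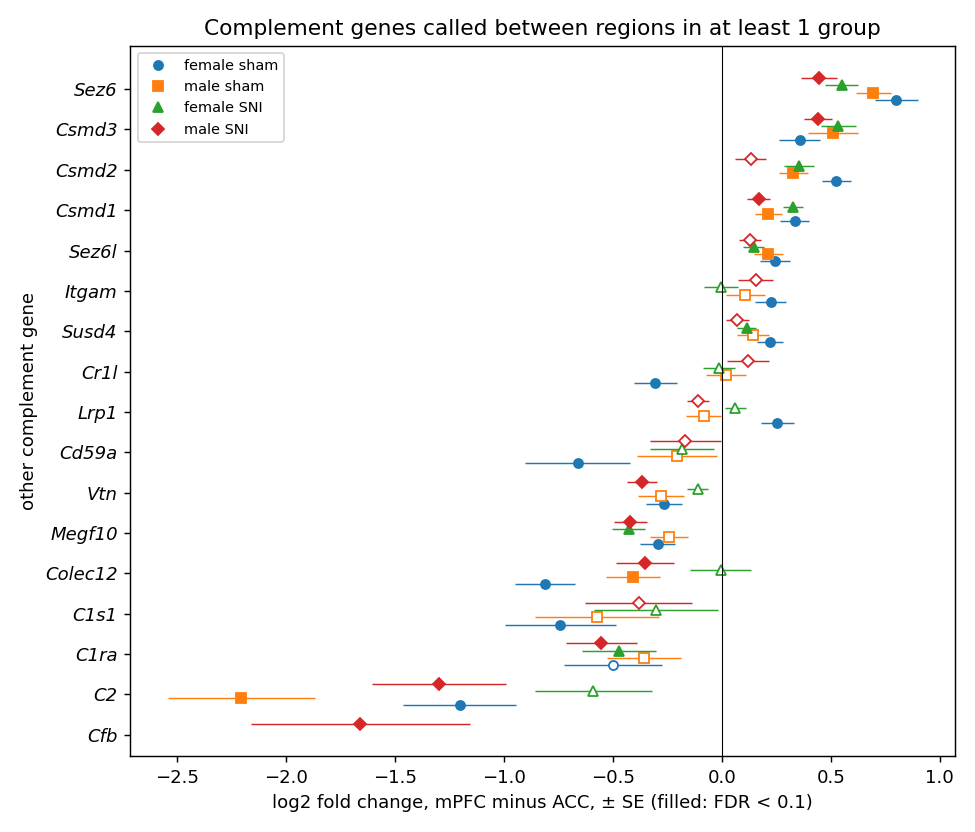
Log2 fold change ± SE, mPFC minus ACC (x axis), for other complement genes that passed in at least 1 of 4 groups (y axis), with filled points at an FDR under 0.1. Sez6 and the Csmd genes lie right of 0 in all groups and C2, C1ra, C1s1 and Megf10 left of 0.

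Between the sexes the other complement genes passed in the SNI ACC, 7 of 37 tested by edgeR, where 23.5% of all genes passed, and in no other group, where 0.076% to 0.177% did. Among them Cr1l (0.25 ± 0.08, FDR = 0.0597) was higher in females, and Lrp1 (-0.21 ± 0.04, FDR = 0.00988), Vtn (-0.22 ± 0.06, FDR = 0.0210), Clu (-0.15 ± 0.05), Sez6l2 and Cfb were lower on the log2 scale. Without female SNI ACC library 1, 2 or 3 or male SNI ACC library 1 the number was 2 (11.6% to 12.1% of all genes), and without male SNI ACC library 3 it was 13 (33.6%). It was 2 as well without the library with hepatocyte transcripts. Cfb was highest, at 27 counts, in male SNI ACC library 1, which held the hepatocyte transcripts. In the sham mPFC, sham ACC and SNI mPFC 0 of 34, 34 and 35 passed, with 8, 4 and 5 at an unadjusted p under 0.05 and 0 by DESeq2. Without female sham mPFC library 3, 5 passed in the sham mPFC (15.5% of all genes), without female SNI mPFC library 2, 1 in the SNI mPFC (0.85%), and without the libraries with hepatocyte transcripts 6 in the sham ACC (16.4%). In the 4 interactions 0 passed by edgeR and by DESeq2, with 8, 2, 5 and 0 at an unadjusted p under 0.05. Leaving out female sham mPFC library 3 gave 9 for sex in the mPFC and 6 for region in females, where 18.3% and 11.6% of all genes were called, and without male sham ACC library 3, 3 passed for sex in the ACC (9.65% of all genes).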

How the data were processed

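RNA-seq of the mPFC and the ACC gave 24 libraries. Per the labels and the study's methods, the authors trimmed reads with Trimmomatic 0.36, removed rRNA reads with Bowtie2 2.33, mapped to GRCm38 with HISAT2 2.1.0 and counted reads per gene with HTSeq 0.9.1. The 4 deposited tables hold raw counts, without normalization. The annotation release and the strand mode are not given in the sources used here. Sample groups came from the labels, and sex and region of a table from its name. GENCODE release M21 named 33336 of 33364 genes.

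The 7 members, the lists and the tests were chosen with earlier results of these data known. Each comparison used its own libraries: filterByExpr (count 10, total 15), TMM, and the legacy quasi-likelihood F-test of edgeR 4.0.16 in R 4.3.3, with Benjamini-Hochberg FDR over all genes tested and 0.1 as threshold. Interactions and common SNI effects were fitted over 12 libraries. CPM used TMM factors from all 24 libraries, and RPKM the summed exon length. Correlations used log2 CPM with a prior count of 2, centred by group. Groups of 3 against 3 were said not to overlap when every library of a group lay above the other group. Region and treatment values had a part in the choice of the 7 genes, so for these contrasts they are described by levels, fold changes and numbers of calls beside the share over all genes, without p-values of single genes. Sex contrasts were tested. The interactions of SNI with sex and with region are described in the same way as the region and treatment contrasts.

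Named were the 7 genes in every comparison, the 5 other complement genes of highest mean RPKM and, per comparison, up to 3 higher and 3 lower with the smallest FDR, and further called genes of the same list were named after their values were seen. The 5 genes most alike were taken by Pearson's r among those with a mean log2 CPM above 0. Marker lists were named after 11 cell types or tissues and the interferon response. Alternatives were DESeq2 1.42.0, RLE size factors, no low-count filter, the current quasi-likelihood method, the replicate block and each library left out. Leaving out the libraries with hepatocyte or choroid transcripts was added after seeing the data. The fits were tested on simulated counts. Total counts of 23853845 to 32864391 per library set the counting error, and 3 counts were taken as the floor. P-values measure the spread between pools only. Counts at an unadjusted p under 0.05 have the number over all genes beside them only for the interactions of the 7. Nothing is read from any of these counts. Some genes that the naming rule selects are not reported here.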

Additional observations from a re-analysis of the deposited data

How the results depend on the processing

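Of the 7 genes, C3 rested on the fewest counts, and reads shared between C4b and C4a were not measured. Pools of mice, 3 per group, limited the tests. Numbers of called genes among the 7 (A) and among the other complement genes (B) that moved by over 1.5 times follow; the cause was not tested. With DESeq2, A was 1 in the male mPFC after SNI, 1 in the female ACC after SNI and 1 between the sexes in the SNI mPFC, and B was 1 in the female ACC after SNI. The shares over all genes in these 3 fits were 1.67%, 0.222% and 3.23%. Without a filter on low counts, A was 1, 1 and 2 after SNI in the female mPFC, male mPFC and female ACC, 1 for the common effect in the mPFC, 3 between the sexes in the SNI mPFC and 1 for each interaction of region with SNI. B was then 1 and 3 after SNI in the female mPFC and female ACC, 1 for the common effect in the ACC, 16 between the regions in SNI males, 2 between the sexes in the SNI mPFC, 2 for sex by SNI in the mPFC and 3 for region by SNI in females. The shares over all genes in these fits were 2.19%, 2.01% and 1.38% after SNI in the female mPFC, male mPFC and female ACC. They were 1.71% and 0.13% for the common effect in the mPFC and ACC, 13.5% between the regions in SNI males and 3.27% between the sexes in the SNI mPFC. Shares for the interactions are not given, so nothing is read from those counts. Without the libraries with choroid transcripts, B was 6 between the regions in SNI males, where 12.4% of all genes were called. Without those with hepatocyte transcripts, A was 1 and 0 and B 6 and 2 between the sexes in the sham and SNI ACC. RLE size factors and the current quasi-likelihood method moved no such number.

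With the replicate block, A and B were each 1 in the male mPFC after SNI, where 4.39% of all genes were called, and no other number moved. Same-numbered libraries deviated together at r of -0.103 to 0.153, with no comparison above 0.1 for all 3 numbers. Each library correlated best with its own number for 3 of 3 numbers after SNI in the female mPFC and between the sexes in the SNI ACC.

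With each library left out, A ran from 0 to 1 after SNI in the male mPFC and in the female ACC, from 2 to 6, 0 to 4 and 0 to 4 between the regions in sham females, sham males and SNI females, and from 0 to 1, 0 to 1 and 0 to 4 between the sexes in the sham mPFC, SNI mPFC and SNI ACC. B ran from 0 to 7, 0 to 3 and 0 to 2 after SNI in the female mPFC, female ACC and male ACC, from 9 to 18, 4 to 13, 5 to 10 and 6 to 11 between the regions in sham females, sham males, SNI females and SNI males, from 0 to 5, 0 to 1 and 2 to 13 between the sexes in the sham mPFC, SNI mPFC and SNI ACC, and from 0 to 9, 0 to 3 and 0 to 6 for sex by SNI in the mPFC, sex by SNI in the ACC and region by SNI in females. The share of all genes called moved as well. Between regions it ran from 13.3% to 41.5% (sham females), 6.61% to 27% (sham males) and 16.7% to 31.6% (SNI females). For SNI males it was 12.4% to 22.3%. Between sexes it was 0.081% to 15.5% (sham mPFC), 0.046% to 0.85% (SNI mPFC) and 11.6% to 33.6% (SNI ACC). After SNI it reached 15.9% (female mPFC), 0.73% (male mPFC), 0.8% (female ACC) and 13.5% (male ACC). For the interactions named it reached 18.3%, 9.65% and 11.6%. No called value changed sign under any alternative.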
